A study of Mus musculus with 6 samples.

Results

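The genes described here are the segments of the T cell receptor beta locus, taken as every gene symbol that begins with Trbv, Trbd, Trbj or Trbc. They number 48 of the 32801 genes in the table: 30 V segments, 2 D segments, 14 J segments and 2 constant genes. RNA was sequenced from regulatory T cells (Treg) sorted as GFP-negative CD4+CD8- Thy1.1+ cells from the thymus of NOD mice and of C57BL/6 (B6) mice, both aged 3 weeks, with 3 libraries per strain. NOD is an inbred strain that develops autoimmune diabetes spontaneously, and B6 is the strain of the reference genome. What GFP and Thy1.1 report is not stated in the labels, and the comparison is between strains of cells sorted alike. The question asked of the locus is whether NOD and B6 Treg carry the same levels of its segments, singly and as shares of the Trbv sum.

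A beta chain gene is assembled in the developing thymocyte by V(D)J recombination, in which the RAG1 and RAG2 proteins first join a D to a J segment and then a V to the joined DJ. The V segment encodes most of the variable domain, including its first and second complementarity-determining loops, and the third loop is formed across the V-D-J junction. The assembled exon is spliced to a constant gene, and the resulting chain pairs with an alpha chain and the CD3 proteins at the surface. Mature T cells, Treg included, therefore differ in the V segment they express. A bulk library reports the sum over all cells, so fewer cells that use a segment and less RNA per cell cannot be told apart.

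In B6 Treg, Trbv3 was among the leading V segments, while in NOD it stood at about the level of its neighbour Trbv2. The last 300 bases of its V exon are chr6:41048529-41048828 (GRCm38, plus strand). In NOD, Trbv13-1 and Trbv13-2 were higher, and these belong to a family of close copies with Trbv13-3. The V exons of these 4 segments (for Trbv3 its last 300 bases) are shown, and those of Trbv1 and Trbv14, described below, are not. The exons shown are the coding part of the second exon in GENCODE M21, and they are reference sequence, not that of NOD mice. In Trbv3 the capitals mark the codon of the last in-frame cysteine, at which the third loop begins.
Trbv3: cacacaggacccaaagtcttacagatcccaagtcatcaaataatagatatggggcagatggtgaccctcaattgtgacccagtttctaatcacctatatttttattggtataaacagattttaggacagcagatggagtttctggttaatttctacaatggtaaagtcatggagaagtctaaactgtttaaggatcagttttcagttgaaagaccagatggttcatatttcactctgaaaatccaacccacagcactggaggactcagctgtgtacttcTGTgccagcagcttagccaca

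In the Trbv13 family the capitals mark the bases that differ from another member, 49 in each of 294. The segments are Trbv13-1 (chr6:41116175-41116468), Trbv13-2 (chr6:41121539-41121832) and Trbv13-3 (chr6:41130292-41130585), all on the plus strand.
Trbv13-1: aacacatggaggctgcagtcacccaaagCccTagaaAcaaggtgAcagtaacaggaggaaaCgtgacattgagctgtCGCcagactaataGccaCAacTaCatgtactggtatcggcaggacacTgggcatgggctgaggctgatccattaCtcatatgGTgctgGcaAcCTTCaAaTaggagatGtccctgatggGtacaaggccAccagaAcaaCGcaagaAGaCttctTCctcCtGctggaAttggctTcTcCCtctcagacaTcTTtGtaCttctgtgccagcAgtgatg
Trbv13-2: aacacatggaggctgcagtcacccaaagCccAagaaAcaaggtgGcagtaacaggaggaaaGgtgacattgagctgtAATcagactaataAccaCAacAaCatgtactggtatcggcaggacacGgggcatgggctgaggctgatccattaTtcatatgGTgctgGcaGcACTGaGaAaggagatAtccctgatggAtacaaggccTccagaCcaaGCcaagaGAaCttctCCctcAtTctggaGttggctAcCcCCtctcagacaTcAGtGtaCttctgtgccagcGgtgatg
Trbv13-3: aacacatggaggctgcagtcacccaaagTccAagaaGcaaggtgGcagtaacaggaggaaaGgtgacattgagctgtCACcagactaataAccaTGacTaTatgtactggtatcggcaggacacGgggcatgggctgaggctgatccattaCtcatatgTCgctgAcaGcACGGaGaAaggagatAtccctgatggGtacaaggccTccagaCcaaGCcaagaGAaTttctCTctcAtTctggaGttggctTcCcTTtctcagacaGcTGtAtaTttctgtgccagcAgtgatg
The members are 88.8% (Trbv13-1 and Trbv13-2), 86.1% (Trbv13-1 and Trbv13-3) and 91.8% (Trbv13-2 and Trbv13-3) identical in their V exons, and the longest run they share is 31, 34 and 50 bases. Trbv12-1 and Trbv12-2 are 89.1% identical with a shared run of 44 bases, and the coding sequences of Trbc1 and Trbc2 are 95.6% identical with a shared run of 259 bases. How the counting treated reads that match more than 1 copy is not stated, so the split between copies is uncertain. Reads were aligned to the B6 genome, and the part that NOD base differences from that genome play in any value here was not tested.

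Values are given as normalized counts, that is, reads per gene divided by the size factor of the library, in whole numbers. They sum to between 16097369 and 17625903 per library, of which the 48 segments held 0.107% to 0.141%. The Treg genes Foxp3 (1701 to 2446), Il2ra, Ctla4, Ikzf2 and Tnfrsf18 were present in every library, and 0 of the 5 was called between strains. Markers of other cell types were each lower than these, but not all were low. The highest was Cd74, at 334, 315 and 406 in NOD and at 654, 746 and 792 in B6. The 6 genes of double-positive and CD8 thymocytes summed to 238 to 320 in NOD and 250 to 304 in B6, but Cd8a rose (124, 35 and 100 against 10, 17 and 18, limma adjusted p = 0.0075) and Rag1 fell. The 5 myeloid and dendritic genes summed to 366 to 508 in NOD and 857 to 1041 in B6, and 2 of the 4 tested fell, among them Cd74. The 2 gamma-delta genes found in the table summed to 39 to 56 and 15 to 31, where Sox13 rose and Trdc overlapped between strains. Sox13 was kept for the test through its NOD values alone. No gene passed the test among those of B cells (4 genes summing to 136 to 194 and 142 to 192), invariant NKT cells (2 genes, 16 to 51 and 8 to 30) and thymic epithelium (3 genes, 165 to 234 and 220 to 306). Their part in the segment values was not tested. NOD library 10 stood apart, with a chi-square statistic per gene of 90.9 and 109 against the other NOD libraries, which differed by 14.5 between them. In B6, library 12 did so to a smaller extent, at 31.1 and 49.1 against the other B6 libraries, which differed by 21.0.

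Of the 48 segments, 38 passed the filter on low values, a normalized count of 10 or more in 3 or more libraries. In the limma fit over all 16442 genes kept, 3 segments rose in NOD (Trbv1, Trbv13-1 and Trbv13-2) and 1 fell (Trbv3) at an adjusted p below 0.05. Over all genes, 4.59% were called higher, 5.3% lower and 9.89% in either direction. The 4 calls are 10.5% of the 38 segments, a share close to that background. All 4 calls were V segments, of which 22 were tested. In 10 tested segments every NOD library lay above every B6 library, and in 2 every NOD library lay below, where 12.1% and 11.9% of all genes do so (24.1% in either direction). Trbv5 passed the filter through its NOD values alone, so its place among the 10 was fixed by the filter. The median log2 fold change was 0.29 over the 22 V segments (Trbv5 included), 0.11 over the 12 tested J segments and 0.01 over all genes.

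**Figure D1:**
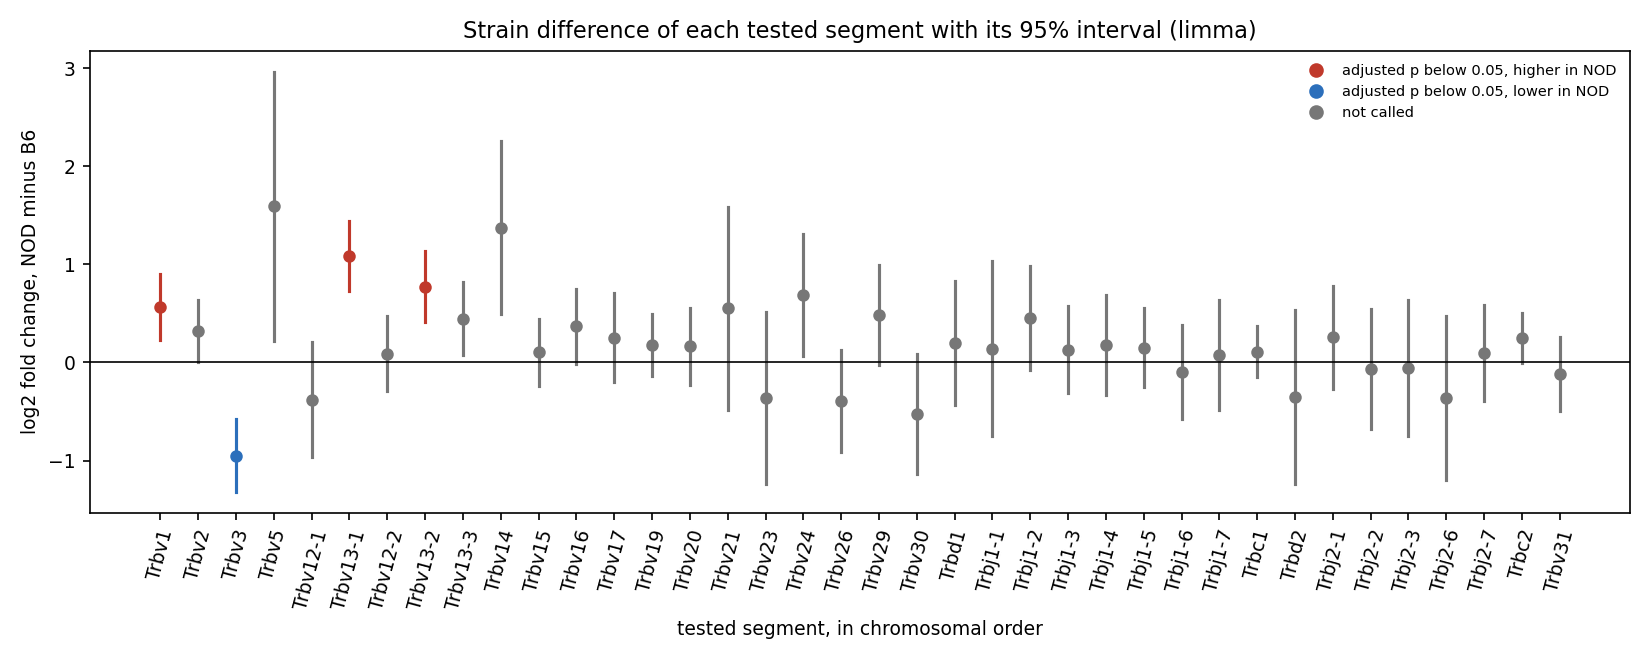
Log2 fold change (NOD minus B6, log2(value + 1) scale) of the 38 tested segments in chromosomal order, with limma's 95% interval as a bar. Trbv1, Trbv13-1 and Trbv13-2 are called higher in NOD, Trbv3 is called lower, and the intervals of every D, J and C gene include 0.

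Trbv3 (RefSeq synonym Tcrb-V16; gene at chromosome 6, 41048290 to 41048828) stood at 371, 248 and 321 normalized counts in NOD libraries 2, 10 and 18. In B6 libraries 4, 12 and 20 it stood at 559, 559 and 685. The lowest B6 library lay well above the highest NOD library. The means were 313 ± 61.9 and 601 ± 72.7 (SD, n = 3 each), and the log2 fold change was -0.95 ± 0.17 (SE, limma adjusted p = 0.0034). The call held with each library left out (log2 fold change from -1.08 to -0.79). As a share of the Trbv sum, Trbv3 took 4.54% ± 1.20 in NOD and 10.1% ± 0.78 in B6, a difference of -5.55 percentage points (exact permutation p = 0.1, the smallest possible with 3 against 3).

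Trbv2, the segment next to Trbv3 with 294 bases between them, did not share this pattern. It stood at 344, 311 and 314 in NOD and at 249, 243 and 285 in B6. Every NOD library lay above every B6 library, but the difference was not called (log2 fold change 0.32 ± 0.14, limma adjusted p = 0.24). The ratio of Trbv3 to Trbv2 within a library needs no scaling between libraries. It was 1.08, 0.797 and 1.02 in the NOD libraries and 2.24, 2.30 and 2.40 in the B6 libraries (mean 0.966 ± 0.149 and 2.32 ± 0.080, exact permutation p = 0.1).

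**Figure D2:**
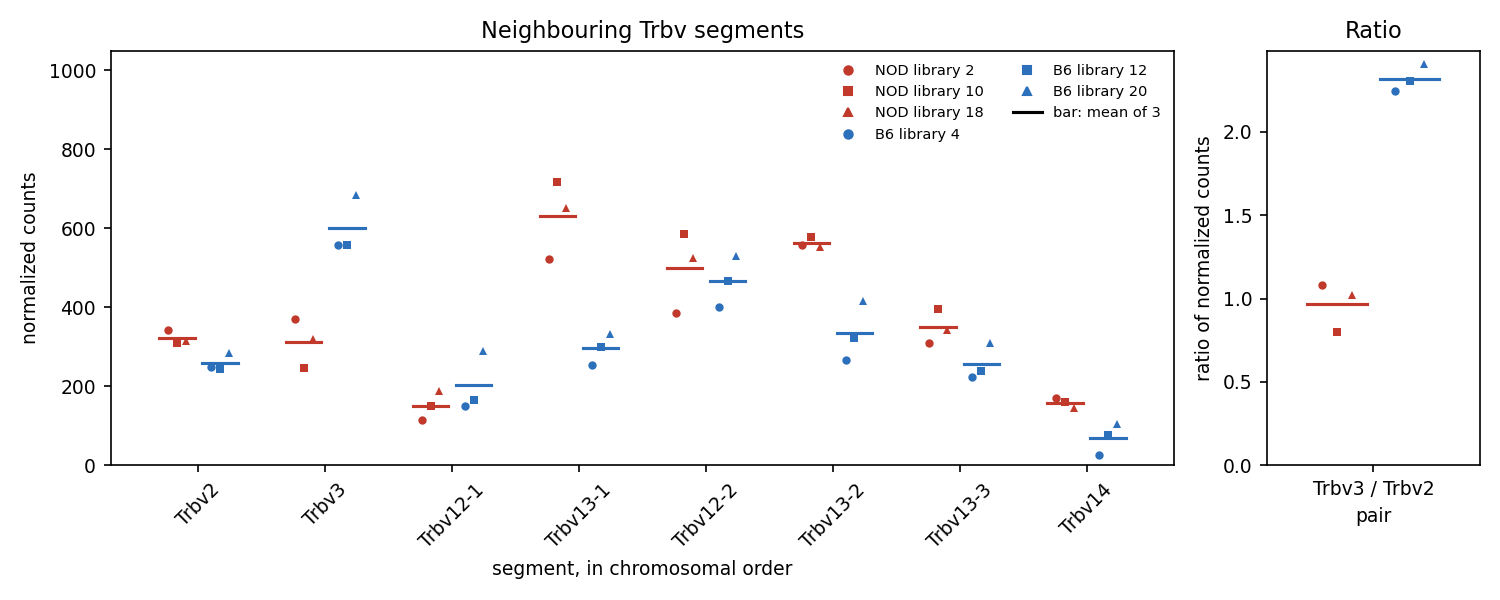
Normalized counts of 8 neighbouring Trbv segments (left) and the ratio of Trbv3 to Trbv2 (right) in each library, with NOD in red, B6 in blue and the mean of 3 as a bar. Trbv3 is lower in every NOD library (248 to 371) than in any B6 library (559 to 685), while Trbv12-2, which lies between Trbv13-1 and Trbv13-2, overlaps between strains.

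Trbv13-1 (synonym Tcrb-V8.3; chromosome 6, 41116007 to 41116468) stood at 523, 718 and 651 normalized counts in NOD and at 254, 301 and 334 in B6. The strains did not overlap. The means were 631 ± 99.1 and 296 ± 40.2, and the difference on the log2 scale was 1.08 ± 0.16 (SE, adjusted p = 0.0010 by limma), a call kept with each library left out. Its share of the Trbv sum was 8.99% ± 0.90 in NOD and 4.97% ± 0.31 in B6 (exact permutation p = 0.1).

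Trbv13-2 (synonym Tcrb-V8.2; chromosome 6, 41121396 to 41121832) stood at 557, 578 and 554 in NOD and at 267, 323 and 416 in B6. The NOD libraries were close to each other and all above B6, whose libraries spread more widely. The log2 fold change was 0.77 ± 0.16 (limma adjusted p = 0.011), and the call was lost without B6 library 4 (0.62, adjusted p = 0.056) and in a fit without a variance trend (adjusted p = 0.066). Its share was 8.07% ± 0.44 in NOD and 5.56% ± 0.28 in B6.

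Trbv13-3 (synonym Tcrb-V8.1), the remaining member, stood at 310, 395 and 343 in NOD and at 224, 239 and 309 in B6. Here too no libraries overlapped, though by 1 normalized count, and the difference was not called (0.45 ± 0.17, limma adjusted p = 0.15). The family together took 21.1%, 22.2% and 22.8% of the Trbv sum in the NOD libraries and 14.6%, 15.1% and 14.7% in the B6 libraries. Within the family, Trbv13-1 made up 40.7% ± 2.7 in NOD and 33.5% ± 1.7 in B6, and Trbv13-3 made up 22.6% ± 0.66 and 29.0% ± 1.2 (exact permutation p = 0.1 for each). Trbv13-2 held 36.7% ± 3.0 and 37.5% ± 1.7 (p = 0.7 by the same exact test). In these counts the strains stood apart in the make-up of the family and not in its sum alone. How reads shared by these close copies were split is not stated, so that make-up is uncertain. The part that NOD base differences play in it was not tested. With the family summed to 1 feature, the fit gave a log2 fold change of 0.81 and an adjusted p of 0.0033 (limma).

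The Trbv12 segments are interleaved with the Trbv13 segments, in a stretch that spans 22.1 kb from Trbv12-1 to Trbv14, and none was called. Trbv12-2 (synonym Tcrb-V5.1), which lies between Trbv13-1 and Trbv13-2, stood at 387, 585 and 526 in NOD and at 401, 467 and 530 in B6. The strains overlapped (0.09 ± 0.17, limma adjusted p = 0.86). Trbv12-1 (synonym Tcrb-V5.2) stood at 116, 151 and 188 in NOD and at 151, 166 and 291 in B6, again overlapping (-0.38 ± 0.27, adjusted p = 0.50). Trbv12-3, annotated as a pseudogene, stood at 1 or 2 in each library. The family took 7.66%, 9.70% and 10.5% of the Trbv sum in NOD and 10.9%, 11.1% and 11.4% in B6, the strains apart (exact permutation p = 0.1). The ratio of Trbv13-1 to Trbv12-2 was 1.27 ± 0.069 in NOD and 0.636 ± 0.0075 in B6 (exact permutation p = 0.1), with the 3 B6 libraries between 0.630 and 0.645.

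Trbv14 (synonym Tcrb-V13; chromosome 6, 41135145 to 41135616), which follows Trbv13-3, stood at 172, 160 and 145 normalized counts in NOD and at 27, 77 and 106 in B6. Every NOD library was higher, and the B6 libraries were far apart. The log2 fold change of 1.37 ± 0.40 just missed the threshold (limma adjusted p = 0.056). It passed without B6 library 20 (1.77, adjusted p = 0.019), with a pseudocount of 5 (adjusted p = 0.046) and with libraries scaled to an equal Trbv sum (adjusted p = 0.028). Without B6 library 4, the lowest, the log2 fold change was 0.81 (adjusted p = 0.083), and without a variance trend the adjusted p was 0.19. Its share was 2.28% ± 0.29 in NOD and 1.12% ± 0.51 in B6.

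Trbv1 (synonym Tcrb-V2), the V segment farthest from the constant genes at chromosome 6, 40891229 to 40891885, stood at 613, 642 and 469 in NOD and at 347, 403 and 406 in B6. It passed the test over all libraries (0.57 ± 0.15, limma adjusted p = 0.038), but 5 of the 6 fits that left a library out no longer called it (adjusted p of 0.058 to 0.17), the exception being the fit without NOD library 18. It was also not called without a variance trend (adjusted p = 0.12). Its shares overlapped between strains, at 6.90% to 9.32% in NOD and 5.64% to 7.05% in B6 (exact permutation p = 0.2). Trbv1 and Trbv13-2 were no longer called when libraries were scaled to an equal Trbv sum (adjusted p = 0.42 and 0.13). On that scale 2 segments were called higher (Trbv13-1, log2 fold change 0.85 ± 0.21, and Trbv14, 1.14 ± 0.33) and 1 lower (Trbv3, -1.18 ± 0.23), where 2.49% of all genes were higher and 6.66% lower.

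Trbv16 (synonym Tcrb-V11) had the largest mean share in the 6 libraries, 10.6% ± 0.85 in NOD and 9.62% ± 0.77 in B6, and overlapped between strains. Trbv19 (synonym Tcrb-V6) took 8.58% ± 0.43 and 8.91% ± 0.30, Trbv15 (synonym Tcrb-V12) 8.18% ± 0.12 and 8.97% ± 0.41, and Trbv12-2 7.10% ± 1.06 and 7.80% ± 0.41. Shares do not take segment length into account. Per kilobase of annotated exon, the mean level over all libraries was again highest for Trbv16 (1658 normalized counts per kilobase), followed by Trbv15 (1501), Trbv13-2 (1321), Trbv13-1 (1266), Trbv12-2 (1254) and Trbv1 (1151). In NOD alone Trbv16 (1863), Trbv13-1 (1723) and Trbv13-2 (1656) led on that scale, and in B6 alone Trbv15 (1457), Trbv16 (1454) and Trbv3 (1321).

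Several segments held a lower share in NOD without a call in the fit. Shares are parts of the same sum, so a rise in some segments lowers others even at unchanged counts. Differences in share are therefore not independent of each other. Trbv31, which lies downstream of the constant genes in the opposite orientation and is joined by inversion, took 5.91%, 5.94% and 5.67% of the Trbv sum in NOD and 7.41%, 6.98% and 7.96% in B6. The shares did not overlap, while its normalized counts did (385 to 452 against 377 to 573, limma adjusted p = 0.80). Trbv26 (synonym Tcrb-V3) took 2.49% ± 0.43 in NOD and 3.85% ± 0.66 in B6, with counts of 144 to 203 against 183 to 326 (log2 fold change -0.39 ± 0.23, adjusted p = 0.42). Trbv30 (synonym Tcrb-V18) stood at 31, 32 and 35 normalized counts in NOD and at 40, 54 and 49 in B6, the strains apart, and missed the threshold (-0.52 ± 0.28, adjusted p = 0.35). In all, 6 of 22 shares lay above B6 in every NOD library (Trbv5, the 3 Trbv13 segments, Trbv14 and Trbv24), and 6 lay below (Trbv3, Trbv12-1, Trbv15, Trbv26, Trbv30 and Trbv31). Of these, Trbv5 was kept by the filter through its NOD values alone. With every library scaled to an equal Trbv sum, 4.76% of all genes lay above and 18.9% below.

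**Figure D3:**
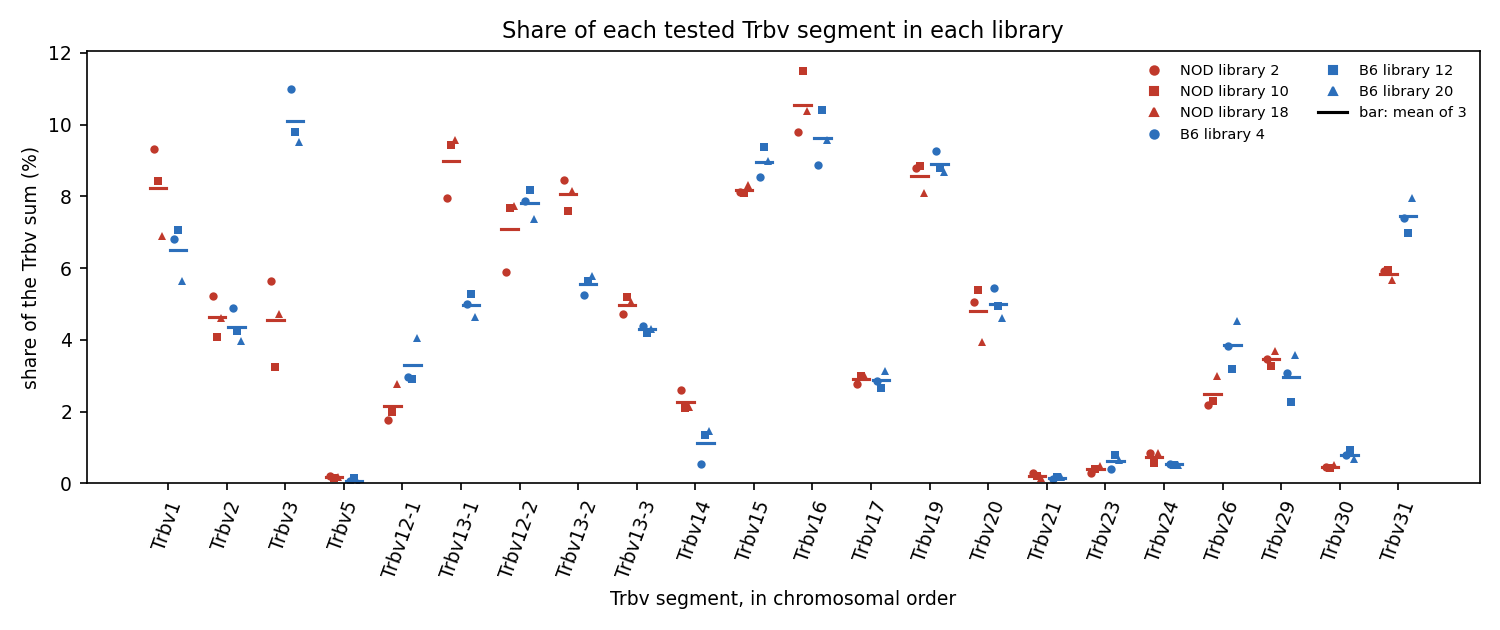
Share of each tested Trbv segment in the Trbv sum (%) in each library, in chromosomal order, with NOD in red, B6 in blue and the mean of 3 as a bar. Trbv3 is near 10% in the B6 libraries and between 3.26% and 5.64% in the NOD libraries, and Trbv13-1 is between 7.95% and 9.58% in NOD and between 4.64% and 5.27% in B6.

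The share profile as a whole separated the strains. The part of the Trbv sum that would have to be placed on other segments to turn 1 library into another was 5.15% to 7.09% for the 6 pairs of the same strain and 10.9% to 14.5% for the 9 pairs from different strains, and the ranges did not overlap. Evenness of use did not separate them. The effective number of segments, the exponential of the Shannon entropy of the shares, was 16.7, 16.1 and 16.8 in NOD and 16.2, 16.5 and 16.8 in B6 (16.5 ± 0.33 and 16.5 ± 0.30, exact permutation p = 1).

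Annotation and level did not always go together. The 8 V segments that GENCODE annotates as pseudogenes held 0.876% ± 0.160 of the Trbv sum in NOD and 0.635% ± 0.029 in B6, and 7 of them did not pass the filter, with at most 10 normalized counts in a library. Trbv10, Trbv11 and Trbv28 were at 0 in every library. The pseudogene that passed was Trbv24, which RefSeq lists as a V segment, at 55, 44 and 57 in NOD and 28, 30 and 38 in B6 (log2 fold change 0.69 ± 0.28, limma adjusted p = 0.20). Trbv29 is a gene in GENCODE and a pseudogene in RefSeq, and stood at 228, 250 and 251 in NOD and at 157, 130 and 257 in B6 (0.48 ± 0.23, adjusted p = 0.28). It was called higher without B6 library 20 (0.76, adjusted p = 0.025). At the other end, the annotated genes Trbv4 (0 to 2 in a library), Trbv5 (12 to 14 in NOD, 1 to 9 in B6) and Trbv21 (6 to 20) were near the bottom. Trbv5 had the highest fitted log2 fold change of the locus (1.59 ± 0.62, adjusted p = 0.17), passed the filter through its NOD values alone, and did not pass the test.

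The D and J segments are short. Assembled exons and unspliced transcripts can both give reads on them, and these values do not separate these sources, so a J value is given as the count on that segment and not as a measure of J use. Trbd1 (chr6:41533201-41533212) and Trbd2 (chr6:41542163-41542176), both on the plus strand, are shown whole to give their size.
Trbd1: GGGACAGGGGGC
Trbd2: GGGACTGGGGGGGC
Trbd1 stood at 213, 124 and 190 normalized counts in NOD and at 121, 119 and 231 in B6, and Trbd2 at 33, 22 and 39 against 23, 40 and 65. Both overlapped between strains (log2 fold changes 0.20 ± 0.29 and -0.35 ± 0.40, limma adjusted p = 0.79 and 0.72).

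No J segment was called. Of 14, 12 were tested, with log2 fold changes from -0.36 (Trbj2-6) to 0.45 (Trbj1-2) and an adjusted p of 0.35 or more. Trbj1-2 stood at 75, 81 and 76 in NOD and at 55, 47 and 69 in B6, and Trbj2-1 at 60, 61 and 61 against 48, 55 and 49, both without overlap. Trbj1-5 was the highest J segment (180, 197 and 177 in NOD, 187, 136 and 180 in B6), followed by Trbj1-3 (143, 146 and 182 against 143, 118 and 172). In the second cluster Trbj2-7 led (88, 133 and 142 against 107, 111 and 114), with Trbj2-2 next (76, 43 and 66 against 60, 57 and 73). Trbj2-4 (5 to 8) and Trbj2-5 (0 to 11) did not pass the filter. The largest and the smallest of these segments are alike in length. The capitals mark the codons that read Phe-Gly-any-Gly, a motif that most of the J segments carry. Trbj1-5 is chr6:41535084-41535133, Trbj2-7 is chr6:41543810-41543856 and Trbj2-5 is chr6:41543453-41543501, on the plus strand.
Trbj1-5: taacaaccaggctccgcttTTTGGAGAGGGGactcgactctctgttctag
Trbj2-7: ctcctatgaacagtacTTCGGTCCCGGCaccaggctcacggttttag
Trbj2-5: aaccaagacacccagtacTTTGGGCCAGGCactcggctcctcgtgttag
The pseudogene Trbj2-6, without these codons, stood at 22, 43 and 22 in NOD and at 28, 31 and 52 in B6, above Trbj2-4 and Trbj2-5, which have them. Trbj1-6 and Trbj1-7 are annotated as genes and also lack these codons. Trbj1-6 stood at 76, 80 and 82 in NOD and at 101, 75 and 81 in B6.

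**Figure D4:**
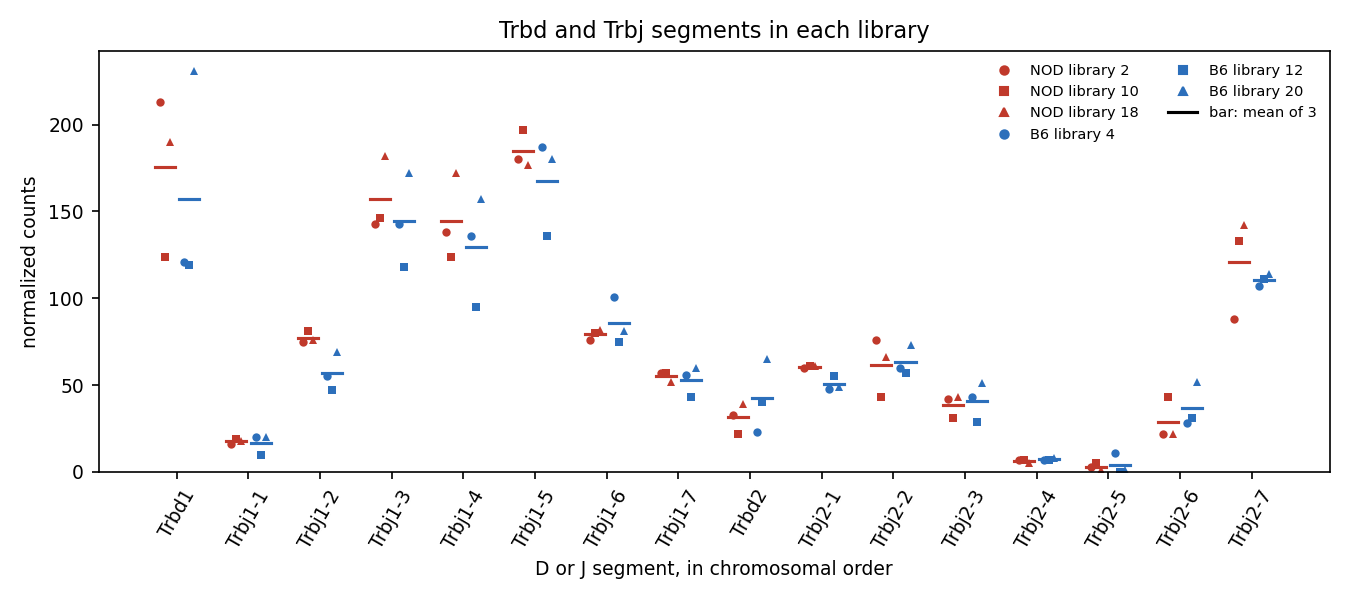
Normalized counts of the 2 Trbd and 14 Trbj segments in each library, in chromosomal order, with NOD in red, B6 in blue and the mean of 3 as a bar. The first cluster peaks at Trbj1-5 and the second at Trbj2-7 in both strains, and Trbj2-4 and Trbj2-5 lie at 11 or below.

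The first J cluster held 69.7%, 68.5% and 69.1% of the Trbj sum in the NOD libraries and 69.7%, 64.4% and 68.0% in the B6 libraries (69.1% ± 0.57 and 67.3% ± 2.7, exact permutation p = 0.4). The constant genes, each of which follows its own J cluster, were the most abundant members. Trbc1 (chromosome 6, 41538218 to 41539881) stood at 6145, 6379 and 5985 in NOD and at 5070, 5437 and 6781 in B6 (log2 fold change 0.11 ± 0.12, limma adjusted p = 0.71). Trbc2 (chromosome 6, 41546730 to 41548352) stood at 8404, 9672 and 8690 against 6685, 7418 and 8499 (0.25 ± 0.12, adjusted p = 0.26). Both overlapped between strains. Trbc1 made up 42.2%, 39.7% and 40.8% of the constant sum in NOD and 43.1%, 42.3% and 44.4% in B6, 40.9% ± 1.3 and 43.3% ± 1.0, without overlap (exact permutation p = 0.1). The gap was narrow, with NOD library 2 at 42.24% and B6 library 12 at 42.29%, and the split of reads between these close copies is uncertain.

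The level of the locus overlapped between strains in each class. The Trbv sum was 6578, 7612 and 6794 in NOD and 5091, 5715 and 7195 in B6, a ratio of 1.17 (exact permutation p = 0.3). The Trbj sum was 983, 1027 and 1099 against 1002, 814 and 1087 (ratio 1.07, p = 0.6 by the same exact test), and the Trbc sum 14549, 16051 and 14675 against 11755, 12855 and 15280 (ratio 1.13, exact p = 0.3). The B6 libraries differed in this level, B6 library 20 being the highest of its strain for 20 of 22 tested V segments and B6 library 4 the lowest for 17. By share, they were so for 7 and 6. The sum of V over C counts stayed between 0.433 and 0.474 in every library.

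**Figure D5:**
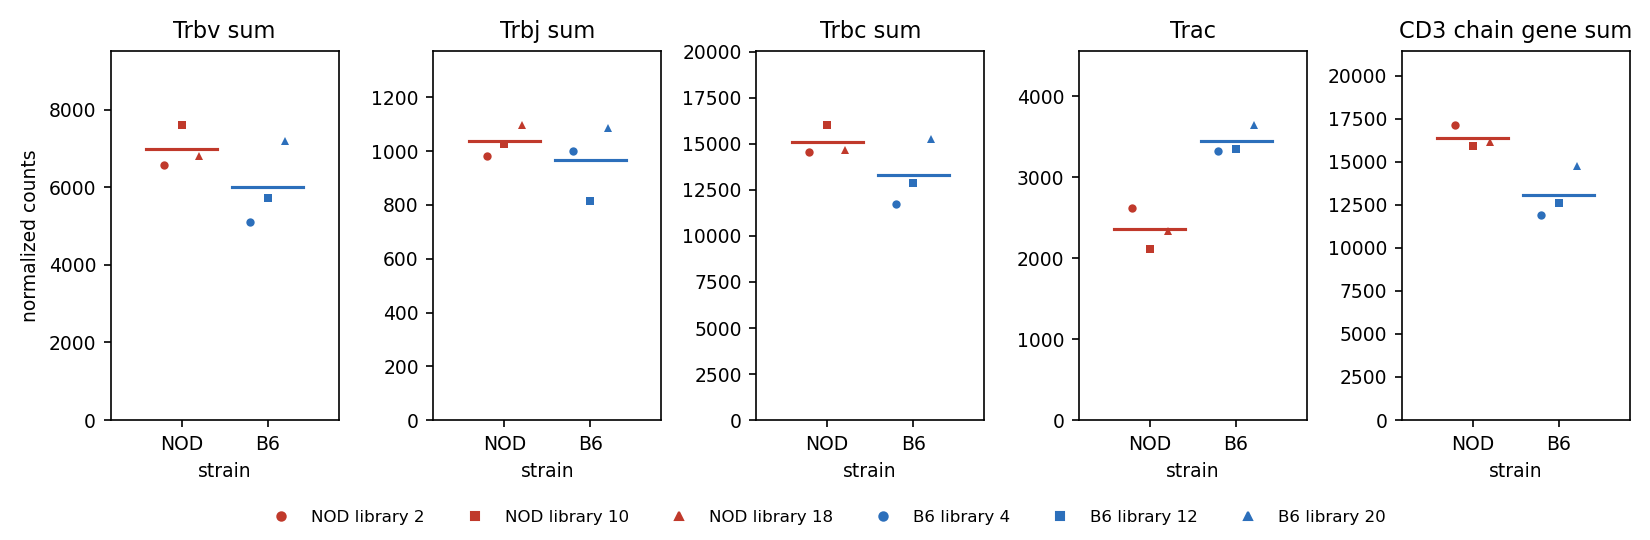
Normalized counts in each library of the Trbv, Trbj and Trbc sums, of Trac and of the CD3 chain gene sum, with NOD in red, B6 in blue and the mean of 3 as a bar. The 3 Trb sums overlap between strains, Trac is lower in every NOD library and the CD3 sum is higher.

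The partners of the beta chain were each set beside it. Trac, the constant gene of the alpha chain, fell in NOD, from 3328, 3348 and 3651 in B6 to 2617, 2114 and 2342 (log2 fold change -0.55 ± 0.11, limma adjusted p = 0.0072). Trbc counts per Trac count were 5.56 to 7.59 in NOD and 3.53 to 4.19 in B6 (exact permutation p = 0.1). The CD3 chains carry the receptor's signal. Cd3e rose (2118, 1598 and 2031 against 1088, 1051 and 1207, 0.77 ± 0.13, adjusted p = 0.0022), while Cd3d (0.30 ± 0.14), Cd3g (0.40 ± 0.12) and Cd247 (0.04 ± 0.10) did not pass the test. Against the sum of these 4 genes, the Trbv sum was 0.428 ± 0.047 in NOD and 0.456 ± 0.030 in B6 (exact permutation p = 0.4), so the direction of the Trb level depended on the gene it was set against.

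Of 51 genes of the receptor complex, recombination, proximal signalling and control of the locus, 49 were tested, 3 rose (Cd3e, Lck and Satb1) and 3 fell (Trac, Ptpn22 and Rag1), with a median log2 fold change of 0.04. The 6 calls are 12.2% of the genes tested, near the 9.89% over all genes. Lck, the kinase that phosphorylates the CD3 chains, stood at 7202 ± 59.9 in NOD and 5138 ± 385 in B6 (0.49 ± 0.10, limma adjusted p = 0.0076). Ptpn22, a phosphatase that restrains receptor signalling, stood at 4377 ± 452 and 6244 ± 232 (-0.52 ± 0.11, adjusted p = 0.0085). Satb1, a chromatin organizer, stood at 14472 ± 1962 and 9087 ± 830 (0.67 ± 0.12, adjusted p = 0.0049). Without a variance trend Trac, Lck, Ptpn22 and Satb1 were no longer called (adjusted p = 0.069, 0.068, 0.077 and 0.059). Of the 16 pre-TCR and recombination genes, 14 were tested and Rag1 was the single call (49, 55 and 67 against 155, 100 and 111, adjusted p = 0.017). Leaving out NOD library 2 gave Rag1 an adjusted p of 0.066, and leaving out B6 library 4 gave 0.099. Dntt, which adds bases at the junctions, stood at 8, 11 and 17 in NOD and at 34, 25 and 25 in B6 (adjusted p = 0.095), and Ptcra, the surrogate alpha chain of immature thymocytes, was at 0 or 1 in every library. Of the 15 genes on control of the locus, such as Runx1, Ctcf and Tcf12, Satb1 was the single call.

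In the authors' deposited table, 4 segments were higher and 1 lower in NOD at their adjusted p below 0.05, of 43 segments with an adjusted p. Over all genes with an adjusted p in the authors' deposited table, 4.68% were higher and 5.06% lower. The authors' deposited table gives log2 fold changes of 1.09 for Trbv13-1 (adjusted p = 1.4e-06), 0.75 for Trbv13-2 (0.0015), 1.20 for Trbv14 (0.00036), 0.58 for Trbv1 (0.024) and -0.94 for Trbv3 (1.83e-05). They are the 4 segments called with limma, and Trbv14.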

How the data were processed

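RNA was measured in 6 libraries, 3 per strain. Per the submitters' processing notes, mm10 was the build and the tools were STAR, Trimmomatic and DESeq2. The sources used here give no version, counter, read length, gene annotation or strand setting. The deposited sample values are scores, counts scaled by the authors with DESeq2 size factors and then rounded, per the file headers and from the values. They are called normalized counts here. The deposited table also holds from the authors a log2 fold change with its standard error, a p-value with its adjusted form, and a mean and a test statistic as further scores. Columns were matched to strain by name and are called by the number they carry (NOD library 2, 10 and 18; B6 library 4, 12 and 20), since these are not the replicate numbers of the labels.

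Genes were kept where 3 or more libraries reached 10 normalized counts (2 libraries where 1 was left out). Strains were compared over all genes kept on log2(value + 1), using limma 3.58.1 under R 4.3.3, with strain as the only term, a variance trend, two-sided tests and p-values adjusted by Benjamini-Hochberg. Calls are at an adjusted p under 0.05. Fold changes on this scale understate those of low genes. The fit was tested on simulated libraries. Single values per library were compared by an exact two-sided permutation test, for which the smallest possible p with 3 against 3 is 0.1. The chi-square statistic per gene between libraries of a strain was at least 14.5, so none was counted as a repeat of another. Nothing in the labels says whether replicates are separate animals, so p-values cover only the spread between these libraries, possibly technical. Raw depth was not used here; normalized counts give no counting interval. Members were matched by symbol to GENCODE M21, whose assembly GRCm38 is the one called mm10.

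The members and gene lists were chosen with earlier results of these data known. The naming rule takes the 5 Trbv segments with the largest mean share, the 4 highest and 4 lowest fold changes, the Trbv12 and Trbv13 families, every called segment, the D and C genes, the 2 largest J segments per cluster and the J extremes. Other members given with values were chosen after these were seen. The ratios of neighbouring segments, the family shares, the shares within the Trbv13 family and the Trbc1 share were not planned. They combine segments that were also compared singly, so their exact permutation p-values are not separate evidence. Alternatives were other pseudocounts, filters and scalings, no variance trend, summed families, each library left out, and a block on sets of column numbers, the last chosen after seeing the data.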

Additional observations from a re-analysis of the deposited data

How the results depend on the processing

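The calls of Trbv3 and Trbv13-1 held under each alternative that fitted them singly. The number of segments called higher was 1 without a variance trend and ranged from 1 (without B6 library 4) to 4 (without B6 library 20) with a library left out. Of the pathway genes, 1 rose and 1 fell without a trend, and 3 to 5 rose with a library left out, 5 without NOD library 10 or B6 library 20. Calls over all genes moved too. Without a trend 528 genes were higher and 638 lower, against 755 and 871 with it. With a library left out, from 490 (without NOD library 18) to 781 (without B6 library 20) were called higher. It was 763 without NOD library 10 and 536 without B6 library 4. Divided by Trac, the log2 difference of the Trbv, Trbj and Trbc sums was 0.78, 0.66 and 0.74, and divided by the CD3 chain gene sum it was -0.10, -0.22 and -0.14. Scaling to an equal Trbv sum moved the median of all genes to -0.22 and turned 12 of the 38 tested segments, none of them called. Of the 24 named segments with a fit, 8 turned, to -0.056 (Trbv19), -0.13 (Trbv15), -0.15 (Trbv12-2), -0.12 (Trbc1), -0.035 (Trbd1), -0.081 (Trbj1-5), -0.10 (Trbj1-3) and -0.13 (Trbj2-7). With a library left out, small differences ranged across 0, from -0.043 to 0.24 (Trbv15), -0.037 to 0.26 (Trbv12-2), -0.72 to 0.0064 (Trbd2), -0.0072 to 0.26 (Trbj1-3), -0.032 to 0.31 (Trbj2-7) and -0.24 to 0.17 (Trbj2-2). The cause was not tested. The columns do not carry the replicate numbers of the labels, but their numbers fall into 3 sets (2 and 4, 10 and 12, 18 and 20). Deviations from the strain means correlated at 0.0072, 0.18 and 0.13 within these sets over all genes kept. Across sets the correlations ran from -0.17 (NOD library 10 with B6 library 20) to 0.098 (NOD library 2 with B6 library 20). The highest values, 0.18 and 0.13, thus fell within sets, but NOD library 2 correlated less with B6 library 4 than with B6 library 20. No label says that a set shares anything, so the sets are not taken as pairs. With the sets as a replicate block, an alternative chosen after seeing the data, 4 segments were called higher (Trbv14 added) and 1 lower. Of the pathway genes 8 rose and 4 fell in that fit. Calls also increased over all 16442 genes kept, to 955 higher and 1072 lower, from 755 and 871 without the block. The values carry no raw depth, so what depth limits was not tested; the 10 segments below the filter held at most 11 normalized counts in a library.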
